A study of Mus musculus with 12 samples.

Results

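The 7 genes described here are the immediate early genes Nr4a1, Egr1, Egr2, Egr3, Ier2, Ier3 and Ier5. They were taken by gene symbol as 7 of the 15217 genes in one deposited table of read counts and new-to-total RNA ratios, and they were chosen by name with their measured read counts and ratios in view, so these values, and the calls that edgeR and limma made for them among all genes, are given as a description and support nothing about the members. The cells were NIH-3T3, an established wild-type line of mouse embryonic fibroblasts. They received 4-thiouridine (4sU) at 0, 200 or 800 µM, and the labels give a time of 2 h for every library and name no vehicle for the cells without 4sU. 4sU is a uridine analogue that enters RNA made while it is present. In SLAM-seq, iodoacetamide alkylates the incorporated 4sU so that sequencing reads it as C instead of T, which separates RNA made during labelling (new) from RNA made earlier (pre-existing). This conversion was carried out either on isolated RNA in tubes (37 °C for 60 min) or inside methanol-fixed cells (50 °C for 30 min), per the labels' protocols, and the study asked how the procedures differ in quantification bias. The 3 doses and 2 procedures gave 6 groups of 2 libraries each, A and B, and the labels do not say whether these came from separate cultures.

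Immediate early genes are transcribed within minutes of a stimulus such as serum or a growth factor, without new protein synthesis, through transcription factors that are already present and are phosphorylated by MAP kinases. Many are switched on by serum response factor bound with a ternary complex factor at a CArG box, or by CREB at a cAMP response element (CRE). Their transcripts are mostly short-lived, often through AU-rich elements in the 3′ untranslated region (UTR), so their level follows transcription closely. Nr4a1 encodes an orphan nuclear receptor, Egr1, Egr2 and Egr3 encode related zinc finger transcription factors, and Ier2, Ier3 and Ier5 encode small proteins named for their immediate early response.

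All 12 libraries came from cells with the fibroblast genes Col1a1, Col1a2, Vim, Thy1, Fn1 and S100a4, and the 9 fibroblast markers together held 15574 to 23279 CPM (counts on the scale of the effective library size). Of 13 markers of other cell types, 9 were in the table and together held 8.52 to 17.9 CPM. Of these, 7 stayed under 1 CPM in every library, among them Cdh1, Krt8, Ptprc, Pecam1 and Cdh5 of epithelium, leukocytes and endothelium. Cd68, a macrophage marker, held 2.78 to 11.1 CPM, and Tubb3, a neuronal marker, held 2.18 to 6.74 CPM. Library totals ranged from 3629634 to 7762635 counts, and 11080 genes, all 7 members among them, passed the filter on low counts. Library A of fixed cells at 800 µM stood apart: the median new-to-total ratio was 25.95% in it and 32.08% to 42.31% in the 7 other labelled libraries, its TMM scaling factor was the lowest at 0.835, and its counts differed from those of library B with a chi-square per degree of freedom of 21.5, against 3.15 to 6.81 in the other groups. The differences in total RNA level that involve fixed cells at 800 µM are therefore given with and without it for the genes described. In bulk RNA, more cells with a transcript and more transcript per cell cannot be told apart.

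The promoters are shown for the 4 members matched in the RefSeq promoter table, as examples of the sequence upstream of these genes, and nothing about the response to 4sU was read from them. Each window runs from 250 bases before to 50 bases after a RefSeq transcription start on GRCm38.p6, 5′ to 3′ on the gene's strand. The windows lie at chr15:101266596-101266895 on the plus strand (Nr4a1), chr10:67537619-67537918 on the plus strand (Egr2), chr17:35821463-35821762 on the plus strand (Ier3) and chr1:155099587-155099886 on the minus strand (Ier5). Capitals mark the short CRE form TGACG on either strand in Nr4a1 and Egr2, the CArG box in Egr2, and the letters TATAA in Ier3 and Ier5.
Nr4a1: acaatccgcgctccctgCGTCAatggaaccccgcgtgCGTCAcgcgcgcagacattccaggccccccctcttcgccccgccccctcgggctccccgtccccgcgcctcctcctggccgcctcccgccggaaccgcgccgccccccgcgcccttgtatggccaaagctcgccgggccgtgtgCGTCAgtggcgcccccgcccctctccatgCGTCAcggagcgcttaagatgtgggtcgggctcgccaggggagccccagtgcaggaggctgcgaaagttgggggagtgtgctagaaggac
Egr2: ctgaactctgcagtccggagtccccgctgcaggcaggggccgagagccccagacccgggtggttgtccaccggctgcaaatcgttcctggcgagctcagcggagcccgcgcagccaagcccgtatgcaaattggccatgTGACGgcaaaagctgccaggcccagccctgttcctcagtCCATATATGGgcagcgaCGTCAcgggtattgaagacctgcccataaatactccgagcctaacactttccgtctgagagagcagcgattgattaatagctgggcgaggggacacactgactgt
Ier3: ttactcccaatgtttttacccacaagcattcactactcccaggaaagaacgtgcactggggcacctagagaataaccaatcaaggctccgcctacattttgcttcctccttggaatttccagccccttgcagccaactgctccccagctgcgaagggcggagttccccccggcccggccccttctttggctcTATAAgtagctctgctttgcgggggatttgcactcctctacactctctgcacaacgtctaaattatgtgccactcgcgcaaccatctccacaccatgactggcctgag
Ier5: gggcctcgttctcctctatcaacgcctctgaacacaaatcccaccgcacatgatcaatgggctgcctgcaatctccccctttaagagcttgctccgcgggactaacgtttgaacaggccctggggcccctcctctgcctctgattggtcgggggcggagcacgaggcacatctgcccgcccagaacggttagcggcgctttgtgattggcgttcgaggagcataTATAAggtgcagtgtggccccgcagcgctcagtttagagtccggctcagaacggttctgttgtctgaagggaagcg
Egr1, Egr3 and Ier2 are named only.

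The Nr4a1 window held 4 copies of TGACG, at −233, −213, −69 and −40 from the start, and 0.231% of the 32851 RefSeq promoter windows of this length held at least 4. All 4 lie on the minus strand, and 72.3% of the window's bases were G or C, against a median of 52.7%. The Egr2 window, which starts from the transcript whose length the deposited table gives, held a CArG box at −72 (in 1.63% of windows) and 2 copies of TGACG at −111 and −55 (at least 2 in 5.01%). The windows of Ier3 and Ier5 held no CArG box and no TGACG, and carried TATAA at −58 and −26. TATAA, a search added after the sequences were seen, was found in 24.9% of windows, and TATAAA, in none of these 4, in 13.6%. The full element TGACGTCA (1.79% of windows) and the EGR site GCGTGGGCG (0.612%) were not found in these 4 windows either. All motifs were searched on both strands, and TGACG is part of TGACGTCA, as TATAA is of TATAAA. A match is a string of letters and does not show that a factor was bound.

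In the 3′ UTR, the pentamer ATTTA is the core of AU-rich elements, which recruit decay factors. Ier3 held 5 in 613 bases, or 8.16 per kb, a density reached by 1.28% of the tested genes. Nr4a1 held 3 in 543 bases, or 5.52 per kb, reached by 4.75%. Among tested genes the median was 1.43 per kb. Egr3 held 7 in a UTR of 2645 bases (2.65 per kb), Egr2 3 (2.5 per kb), Egr1 2 (1.64 per kb) and Ier5 2 in 2143 bases (0.93 per kb), whereas Ier2 held 0, as did 29.4% of genes. A stretch of 24 bases is shown for the densest members, with the pentamers in capitals, from base 177 of the Ier3 UTR and from base 440 of the Nr4a1 UTR in the GENCODE M21 annotation of GRCm38.
Ier3: attaatATTTAtgtATTTAtgtat
Nr4a1: acagattctgATTTAtatttgtgt

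The genes other than Nr4a1 are compact. In GENCODE M21 on GRCm38, Ier2 (chromosome 8, 84661331 to 84662852, minus strand) and Ier5 (chromosome 1, 155096361 to 155099636, minus strand) are single-exon genes. Ier3 (chromosome 17, 35821684 to 35822923), Egr2 (chromosome 10, 67535475 to 67542188) and Egr3 (chromosome 14, 70077203 to 70082614) have 2 exons in the transcript used, and Nr4a1 (chromosome 15, 101254269 to 101274795) has 8. The Nr4a1 and Egr2 promoter windows shown above lie inside the spans given here. The levels of the members, compared per kb of the deposited transcript length, spanned a wide range. Over the 12 libraries the mean level was 284 ± 41.7 CPM per kb for Ier3, 119.7 ± 44.7 for Ier5, 36.9 ± 15.3 for Nr4a1, 19.9 ± 3.97 for Ier2, 12.4 ± 4.60 for Egr1, 11.6 ± 5.90 for Egr3 and 0.92 ± 0.44 for Egr2 (SD over 12 libraries of 6 groups). Ier3 and Ier5 were the highest and the next in each of the 6 groups, and Egr2 was the lowest in each. Ier3 thus lay above 97.3% of tested genes per kb, and Egr2 above 9.80%.

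The middle of this order changed with 4sU. Without 4sU in tubes, Nr4a1 was at rank 5, with 16.6 and 10.2 CPM per kb, below Ier2 (18.3 and 23.3) and Egr1 (19.5 and 19.0), which overlapped each other. In the other 5 groups Nr4a1 was at rank 3. In all 4 labelled groups Egr3 had a higher mean per kb than Egr1, while it lay below Egr1 in both groups without 4sU. In fixed cells at 800 µM, Egr3 (7.24 and 13.1 CPM per kb) and Egr1 (6.73 and 8.88) overlapped, so their order there was within the spread between libraries.

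Nr4a1, whose product was first known as a growth factor-inducible nuclear receptor, was higher in every library with 4sU than in every library without it. In tubes its level was 41.1 CPM in library A and 25.2 CPM in library B without 4sU, 104 and 133 CPM at 200 µM, and 135 and 115 CPM at 800 µM. In fixed cells it was 52.6 and 53.3 CPM without 4sU, 95.3 and 113 CPM at 200 µM, and 116 and 114 CPM at 800 µM. The labelled levels of both procedures lay in one range, from 95.3 to 135 CPM, and the procedures differed more in their unlabelled libraries, where both fixed libraries lay above both tube libraries. Fitted over all genes, Nr4a1 was higher by a log2 difference of 1.85 (SE 0.19), or 3.61-fold, at 200 µM and 1.93 (SE 0.19), or 3.80-fold, at 800 µM in tubes. In fixed cells the log2 differences were 0.97 (SE 0.18), or 1.97-fold, and 1.12 (SE 0.18), or 2.17-fold (n = 2 libraries per group). Without library A of fixed cells at 800 µM the last value was 1.16 (SE 0.20).

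**Figure D1:**
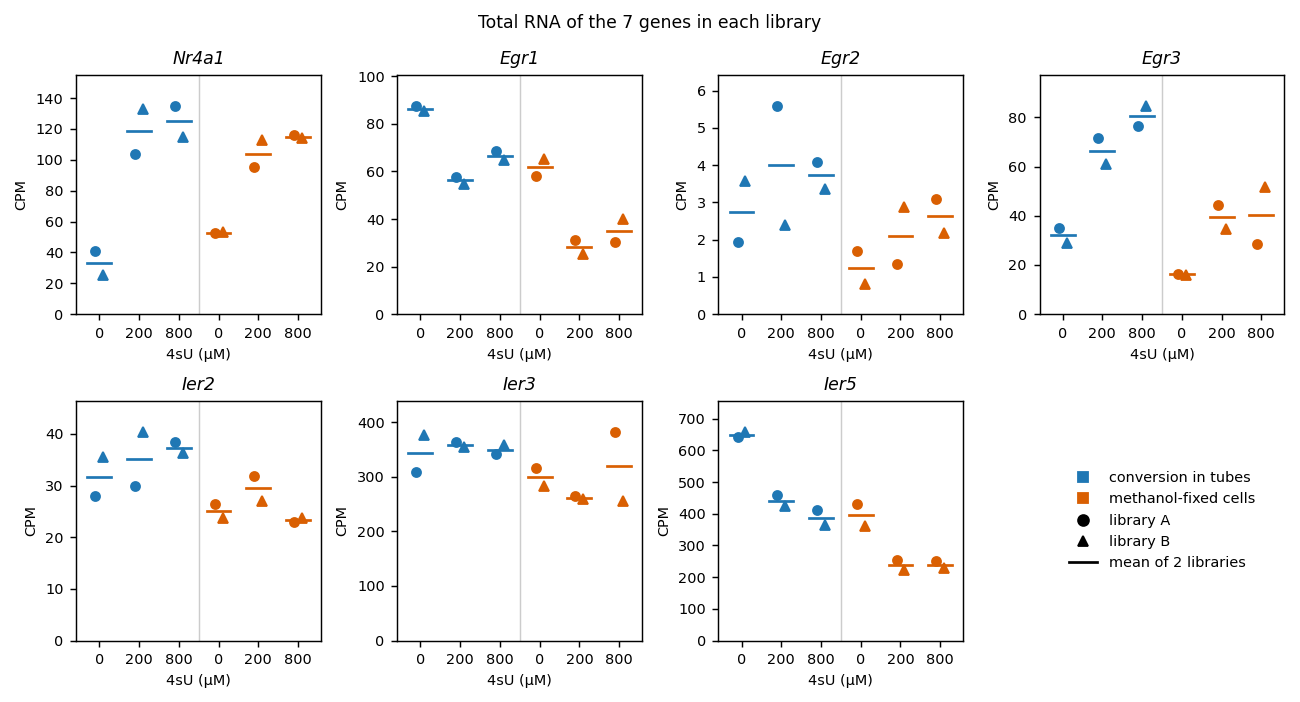
Total RNA of each gene in CPM (linear axes from 0) against the 4sU dose, with conversion in tubes on the left of each panel and in methanol-fixed cells on the right. Circles are library A, triangles library B and lines the mean of 2 libraries. Nr4a1 and Egr3 lie higher with 4sU, and Egr1 and Ier5 lower. Ier2 lies higher at 800 µM in tubes and at 200 µM in fixed cells, and Ier3 lower at 200 µM in fixed cells. In their other comparisons with no 4sU, Ier2 and Ier3 overlap.

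The 3 Egr genes did not move as one family. Egr3, which encodes a transcription factor induced in muscle spindles, lymphocytes and neurons, was higher with 4sU, with 35.1 and 28.9 CPM in tubes without 4sU, 71.6 and 60.8 CPM at 200 µM, and 76.4 and 84.7 CPM at 800 µM. In fixed cells Egr3 had 16.5 and 15.8 CPM without 4sU, 44.4 and 34.7 CPM at 200 µM, and 28.5 and 51.7 CPM at 800 µM. Each labelled library lay above both unlabelled libraries of its procedure, and the widest gap between replicates was in fixed cells at 800 µM, where library A was the lower one. The log2 differences of Egr3 were 1.05 (SE 0.22) and 1.33 (SE 0.22) in tubes and 1.29 (SE 0.23) and 1.32 (SE 0.24) in fixed cells, at 200 µM and 800 µM. The last value was 1.73 (SE 0.20) without library A and 0.82 (SE 0.22) without library B.

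Egr1, the most studied member of its family and a serum-induced regulator of growth control genes, went the other way. In tubes it had 87.6 and 85.2 CPM without 4sU, 57.8 and 54.9 CPM at 200 µM, and 68.6 and 64.7 CPM at 800 µM. In fixed cells Egr1 had 58.2 and 65.2 CPM without 4sU, 31.0 and 25.3 CPM at 200 µM, and 30.2 and 39.8 CPM at 800 µM. All labelled libraries were below both unlabelled libraries of the same procedure, and 200 µM gave the lower mean of the 2 doses in both procedures. The log2 differences were −0.62 (SE 0.16) and −0.37 (SE 0.15) in tubes, and −1.13 (SE 0.16) and −0.81 (SE 0.16) in fixed cells. Without library A of fixed cells at 800 µM the value there was −0.58 (SE 0.18) and no longer past the threshold.

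Egr2, a regulator of myelination and hindbrain patterning, was near the limit of detection, with 5 to 32 counts in a library. Its levels in tubes were 1.92 and 3.57 CPM without 4sU, 5.59 and 2.39 CPM at 200 µM, and 4.08 and 3.37 CPM at 800 µM. Fixed cells gave 1.69 and 0.80 CPM of Egr2 without 4sU, 1.34 and 2.88 CPM at 200 µM, and 3.08 and 2.18 CPM at 800 µM. The groups overlapped in 3 of the 4 comparisons with no 4sU, and the log2 differences of 0.48 (SE 0.56), 0.42 (SE 0.55), 0.77 (SE 0.64) and 1.08 (SE 0.65) did not pass the threshold. In fixed cells at 800 µM both libraries lay above both unlabelled ones, and the value was 0.88 (SE 0.79) without library A. The 5 to 32 counts limit what could be detected for this gene.

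The 3 Ier genes, of which Ier2 and Ier5 belong to one protein family and Ier3 does not, also differed. Ier5, a target of heat shock factor and a cofactor in its dephosphorylation, was lower in every labelled library. In tubes its level was 641 and 658 CPM without 4sU, 459 and 424 CPM at 200 µM, and 411 and 365 CPM at 800 µM. In fixed cells Ier5 had 430.4 and 362 CPM without 4sU, 254 and 223 CPM at 200 µM, and 250.4 and 229 CPM at 800 µM. The unlabelled fixed libraries lay within the range of the labelled tube libraries or next to it, and the labelled fixed libraries lay below all others. The log2 differences were −0.56 and −0.74 in tubes and −0.73 at both doses in fixed cells, each with an SE of 0.13, and the last was −0.74 (SE 0.15) without library A.

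Ier2 and Ier3 differed from their unlabelled levels by at most 0.23 on the log2 scale. Ier2, a nuclear protein induced by growth factors, had 27.9 and 35.5 CPM without 4sU, 29.9 and 40.3 CPM at 200 µM, and 38.4 and 36.3 CPM at 800 µM in tubes. In fixed cells it had 26.5 and 23.7 CPM, 31.8 and 27.1 CPM, and 23.0 and 23.8 CPM in the same order. The log2 differences of Ier2 were 0.15, 0.23, 0.23 and −0.10, each with an SE of 0.18 to 0.19. The last was −0.02 (SE 0.23) without library A, and the first was −0.04 when libraries were scaled on low-ratio genes (those in the third with the least new RNA).

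Ier3, a regulator of apoptosis and of MAP kinase signalling, had 308 and 377 CPM without 4sU, 364 and 353 CPM at 200 µM, and 341 and 357 CPM at 800 µM in tubes. In fixed cells Ier3 had 317 and 282 CPM, 264 and 259 CPM, and 382 and 256 CPM. At 800 µM in fixed cells library A gave the highest and library B the lowest level of the 12. The log2 differences were 0.07, 0.03, −0.20 and 0.09 (SE 0.16 each), and the last was −0.17 (SE 0.14) without library A. Scaled on low-ratio genes, the Ier3 values were −0.13, −0.14, −0.30 and −0.11, where the median gene was at −0.16, −0.14, −0.11 and −0.18. The direction of Ier3 thus depended on the scaling in tubes and at 800 µM in fixed cells, and was negative with both scalings at 200 µM in fixed cells.

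Past the Benjamini-Hochberg (BH) threshold of 0.05 over the 11080 genes tested with edgeR's quasi-likelihood test, Nr4a1 and Egr3 were higher and Egr1 and Ier5 lower at 200 µM in tubes, where 2.36% of all genes were called higher and 1.39% lower. At 800 µM in tubes Nr4a1 and Egr3 were called higher and Ier5 lower, beside 0.912% and 0.957% of all genes. In fixed cells Nr4a1 and Egr3 were called higher and Egr1 and Ier5 lower at both doses, beside 0.244% and 0.569% of all genes at 200 µM and 0.776% and 1.89% at 800 µM. In Nr4a1 and Egr3 both labelled libraries lay above both unlabelled ones in all 4 comparisons, as they did in 28.7%, 27.8%, 24.1% and 24.2% of all genes, and in Egr1 and Ier5 below, as in 21.6%, 22.0%, 25.1% and 25.1%. Ier2 also lay above at 800 µM in tubes and at 200 µM in fixed cells, Egr2 above at 800 µM in fixed cells. Ier3 lay below at 200 µM in fixed cells. Since the members were chosen with these values known, nothing is read from their counts. The balance of calls over all genes depended on the scaling: scaled on low-ratio genes, 78 genes were called higher and 554 lower at 200 µM in tubes (262 and 154 as reported), 48 and 330 at 800 µM (101 and 106), and in fixed cells 18 and 185 at 200 µM (27 and 63) and 40 and 715 at 800 µM (86 and 209). The 2 doses of a procedure share the same unlabelled libraries, so their values are not independent of each other, whereas the procedures share none. Over the 315 tested genes with a mean ratio over 90%, the median log2 difference was 0.04 and 0.03 in tubes and −0.06 and −0.07 in fixed cells at 200 µM and 800 µM, and over all genes it was 0.03 in tubes and near 0 in fixed cells. The medians of the 7 members were 0.15, 0.23, 0.23 and 0.09.

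With 2 libraries per group, many of these calls depended on single libraries. Left out one at a time, no library of the comparison ended the call of Nr4a1 in tubes, whose value over all alternatives lay between 1.53 and 2.24 at 200 µM and between 1.61 and 2.31 at 800 µM. In fixed cells Nr4a1 lost its call at 200 µM whichever of the 4 libraries was left out (0.85 to 1.09), and at 800 µM without either unlabelled library (1.11 without A and 1.17 without B). Egr3 lost it at 200 µM whichever library was left out, in tubes (0.91 to 1.19) and in fixed cells (1.10 to 1.46). At 800 µM Egr3 lost it in tubes without unlabelled library B (1.20) or labelled library B (1.26), and in fixed cells without unlabelled library A (1.35) or B (1.33).

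Ier5 likewise lost its call at 200 µM whichever library was left out, in tubes (−0.61 to −0.50) and in fixed cells (−0.83 to −0.60). At 800 µM it did so in tubes without unlabelled library B (−0.72), labelled library A (−0.83) or labelled library B (−0.66), and in fixed cells without unlabelled library A (−0.60). Egr1 at 200 µM lost its call in tubes whichever library was left out (−0.65 to −0.58), and in fixed cells without unlabelled library B (−1.01) or labelled library B (−0.99). At 800 µM in fixed cells Egr1 lost it without labelled library A, as given above, or without unlabelled library A (−0.89) or B (−0.69). Every one of these values kept its sign. With only the 2 groups of that comparison in the fit, Egr1 (−0.83), Egr3 (1.30) and Ier5 (−0.74) at 800 µM in fixed cells were not called either.

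**Figure D2:**
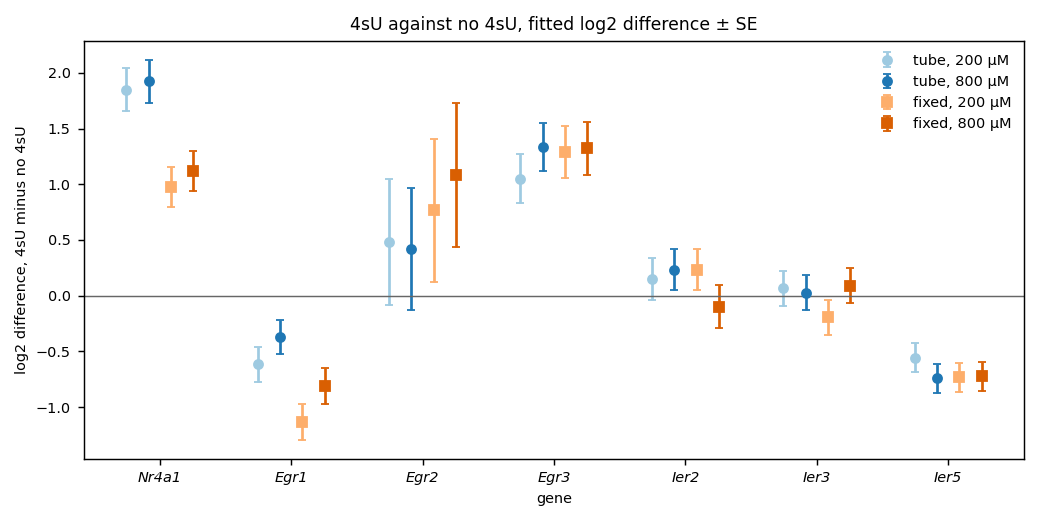
Fitted log2 difference of each gene between libraries with and without 4sU, with bars of 1 SE, for both doses in tubes (circles) and in fixed cells (squares), 2 libraries per group. Nr4a1 reaches 1.93 in tubes and 1.12 in fixed cells, Egr3 lies between 1.05 and 1.33 in all 4, and Ier5 between −0.74 and −0.56.

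The difference between the procedures in the 4sU effect was −0.88 (SE 0.26) at 200 µM and −0.81 (SE 0.26) at 800 µM for Nr4a1, that is, a smaller difference in fixed cells, whose unlabelled level was the higher one. Without library A of fixed cells the latter was −0.73 (SE 0.27). For Egr1 the values were −0.51 and −0.44 (SE 0.22 each), the second −0.17 (SE 0.22) without library A. For Ier5 they were −0.18 and 0.02 (SE 0.18 each), the second 0.04 (SE 0.19) without library A. For Egr3 they were 0.24 (SE 0.32) and −0.01 (SE 0.34), and the second had no stable direction, lying between −0.52 and 0.43 over 14 alternatives, of which 7 kept its sign, with 0.43 (SE 0.26) without library A. None of the 11080 genes passed the BH threshold for this difference with edgeR (0% called), although 993 genes at 200 µM and 654 at 800 µM had an unadjusted p under 0.05, and DESeq2 called 9 and 0. The Nr4a1 difference did not pass among all genes tested.

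From 200 µM to 800 µM, with all 12 libraries, no member passed the threshold, and 0% of genes did in either procedure with edgeR (987 genes in tubes and 872 in fixed cells at an unadjusted p under 0.05, and 12 and 0 with DESeq2). Nr4a1 differed by 0.08 (SE 0.17) in tubes and 0.14 (SE 0.18) in fixed cells across this step, the latter 0.15 (SE 0.19) without library A of fixed cells at 800 µM. Egr1 was higher at the larger dose by 0.24 (SE 0.15) and 0.32 (SE 0.17), Egr3 by 0.28 (SE 0.20) and 0.03 (SE 0.21). Without library A the fixed values were 0.51 (SE 0.18) for Egr1 and 0.40 (SE 0.19) for Egr3. Ier3 in fixed cells was higher at the larger dose by 0.28 (SE 0.16). Its value was −0.02 (SE 0.14) without library A and 0.55 (SE 0.14) without library B, where it passed the threshold (edgeR BH-adjusted p = 0.0275) beside 3.08% of all genes called higher and 1.2% lower.

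The unlabelled libraries themselves differed between procedures. Nr4a1 was higher in fixed cells than in tubes by 0.69 (SE 0.20), and Egr1, Egr3 and Ier5 were lower, with −0.48 (SE 0.15), −0.98 (SE 0.24) and −0.71 (SE 0.13). These 4 passed the BH threshold with edgeR, as did 16.2% of all genes upward and 15.2% downward. In Nr4a1 both fixed libraries lay above both tube libraries, as in 33.7% of genes, and in Egr1, Egr2, Egr3, Ier2 and Ier5 below, as in 34.0%. Nothing is read from these counts. With 1 library left out, Egr3 and Ier5 kept their calls each time, Egr1 lost its own whichever library it was (−0.60 to −0.40), and Nr4a1 lost its own without tube library B (0.37) or fixed library A (0.70) or B (0.65). Egr2 at −1.18 (SE 0.65), Ier2 at −0.35 (SE 0.19) and Ier3 at −0.20 (SE 0.16) did not pass. The 315 genes with a mean ratio over 90% had a median of −0.24, with 28 called higher and 109 lower, against −0.01 over all genes. Scaling on low-ratio genes put the median gene at −0.35, left Nr4a1 at 0.34 (SE 0.20) and not past the threshold, and put Ier2 at −0.69 and Ier3 at −0.54 past it, beside 32.8% of all genes called lower and 6.78% higher with that scaling. Fixation, temperature and reaction time differ together between the procedures and cannot be told apart.

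In the labelled libraries most RNA of these genes was new. The new-to-total ratio, given here as the mode of its posterior distribution, averaged 99.6% over the 8 labelled libraries for Nr4a1, 98.4% for Ier2, 96.4% for Ier5, 92.1% for Egr1, 92.05% for Ier3, 90.4% for Egr3 and 90.3% for Egr2. The median over the 5532 genes with at least 100 counts in each labelled library was 35.3%, and 5.69% of those genes lay over 90%. Nr4a1 thus exceeded 99.9% of them, Ier2 99.6% and Ier5 98.6%. Of the 56 ratios (7 genes in 8 libraries), 20 were at 100% and 12 under 90%. A mode at 100% is the edge of the scale and lies above the 0.95 quantile of its own distribution. No ratio was used for the unlabelled libraries, so the background of the conversion is not measured there.

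**Figure D3:**
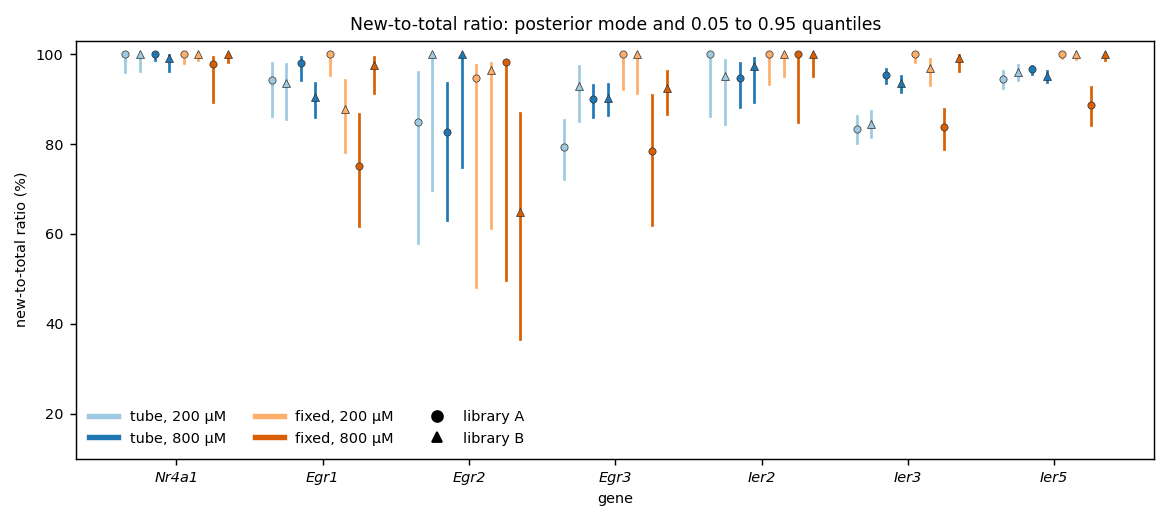
New-to-total RNA ratio in percent (axis from 10%) of each gene in the 8 labelled libraries, as the posterior mode with bars from the 0.05 to the 0.95 quantile. Circles are library A and triangles library B. The bars are shortest for Nr4a1 and Ier5 and widest for Egr2, which had at most 32 counts, and library A of fixed cells at 800 µM gave the lowest ratio of Nr4a1, Egr1, Egr3 and Ier5.

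Nr4a1 had ratios of 100% in both tube libraries at 200 µM, 100% and 99.05% at 800 µM, 100% in both fixed libraries at 200 µM, and 97.76% and 100% at 800 µM. Its lowest 0.05 quantile was 89.3%, in library A of fixed cells at 800 µM, and in the other 7 libraries this quantile was at least 96.06%. Ier5 had 94.5% and 96.15%, then 96.6% and 95.14% in tubes, and 100% and 100%, then 88.79% and 100% in fixed cells. Library A of fixed cells at 800 µM was thus the only fixed library in which the Ier5 ratio fell short of 100%.

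Ier3 in tubes had a lower ratio in both libraries at 200 µM than in both at 800 µM. It was 83.35% (0.05 to 0.95 quantiles 80.2% to 86.3%) and 84.53% (81.5% to 87.3%) at 200 µM, and 95.29% (93.5% to 96.75%) and 93.53% (91.6% to 95.1%) at 800 µM. These intervals, which cover the counting error within a library, did not overlap between the doses. The logit difference of 1.18 (SE 0.95) did not pass with limma (BH-adjusted p = 0.708), beside −0.20 for the median gene. That SE pools the spread of all 4 labelled groups and does not measure that of the tube libraries alone. The SD of the Ier3 ratio was 0.83 and 1.24 percentage points in tubes, against 2.15 and 10.9 in fixed cells (200 µM and 800 µM). In fixed cells Ier3 had 100% and 96.96% at 200 µM, and 83.69% and 99.05% at 800 µM.

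The Egr3 ratio in tubes was 79.28% and 92.94% at 200 µM, then 89.96% and 90.36% at 800 µM. Fixed cells had 100% in both libraries at 200 µM, and 78.41% and 92.38% at 800 µM. Both fixed libraries at 200 µM lay above all 6 others. Egr1 ranged from 75.15%, in library A of fixed cells at 800 µM, to 100%, in library A of fixed cells at 200 µM, and Ier2 from 94.72% to 100%.

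No gene of the 5532 passed the BH threshold with limma on the logit of the ratio (0% called) between the procedures at 200 µM or at 800 µM, or between the doses in tubes or in fixed cells, although 1030, 1144, 463 and 925 had an unadjusted p under 0.05. With posterior means in place of modes, 8 genes passed between the procedures at 800 µM. Egr2 was too low for this test. Without library B of fixed cells at 800 µM, Egr3 and Ier5 had lower ratios at 800 µM than at 200 µM, with logit differences of −3.31 and −2.53. Library A alone stands for that group in this setting. Without library A instead, the differences were −2.10 and 0. Both genes had ratios of 100% in both fixed libraries at 200 µM, which entered the logit as 0.99. This limit sets the size of these differences, and the 0 of Ier5 lies between values at the limit.

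Splitting the total by the ratio gives the level of new RNA alone. For Nr4a1 the new RNA ranged from 104 to 135 CPM in tubes and from 95.3 to 114 CPM in fixed cells, and in both procedures each labelled library held more new Nr4a1 RNA than the unlabelled libraries held in total. The same held for Egr3, with 56.5 to 76.5 CPM of new RNA in tubes against totals of 28.9 to 35.1 CPM, and 22.4 to 47.8 CPM in fixed cells against 15.8 to 16.5 CPM. For Ier5 the new RNA of 347 to 434 CPM in tubes and 222 to 254 CPM in fixed cells lay below both unlabelled totals of the same procedure. For Egr1 so did the 51.3 to 67.3 CPM in tubes and 22.2 to 38.8 CPM in fixed cells. New RNA cannot exceed the total, so for Ier5 and Egr1 this follows from their lower labelled totals and is no further result. For Nr4a1, with a mean ratio of 99.6%, the new level nearly restates the total. For Egr2, Ier2 and Ier3, new RNA overlapped the unlabelled totals.

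The pre-existing RNA left after 2 h differed between the genes. By the posterior mode it was at most 2.60 CPM for Nr4a1, at most 7.50 CPM for Egr1 and at most 28.1 CPM for Ier5, each in library A of fixed cells at 800 µM. The posterior mean gave 3.78, 7.44 and 28.1 CPM in that library. A mode at 100% leaves 0 CPM of pre-existing RNA, so the values from the mode are estimates and not upper limits. Egr3 kept 14.8 CPM of pre-existing RNA in tube library A at 200 µM, and 4.30 to 8.16 CPM in the other 3 labelled tube libraries. Ier3 kept 60.6 and 54.7 CPM in tubes at 200 µM and 16.05 and 23.1 CPM at 800 µM. In fixed cells it kept 0 and 7.87 CPM at 200 µM, and 62.2 CPM in library A and 2.43 CPM in library B at 800 µM.

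**Figure D4:**
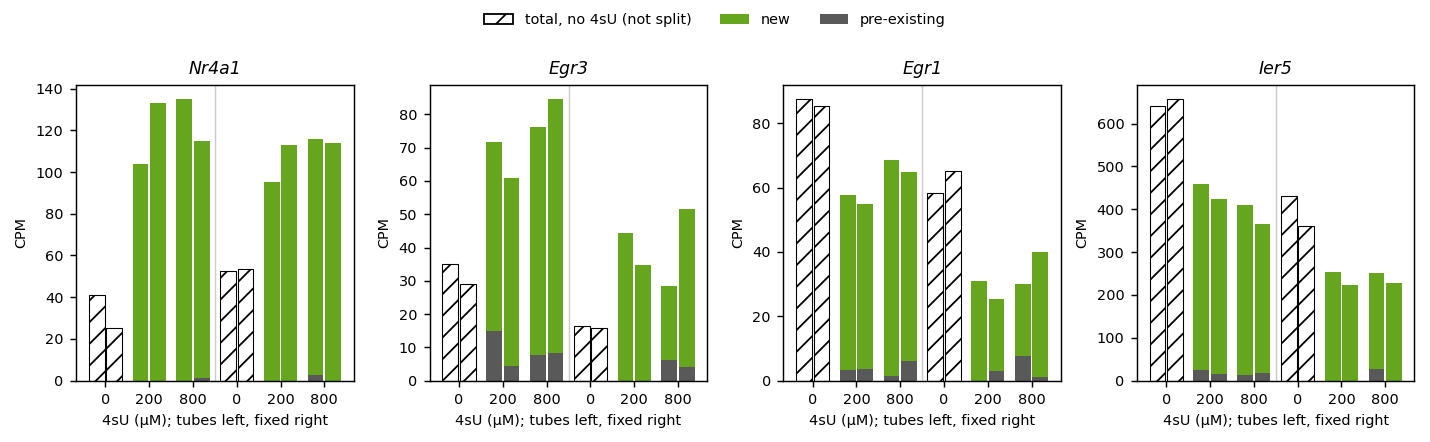
Stacked new (green) and pre-existing (dark grey) RNA in CPM for Nr4a1, Egr3, Egr1 and Ier5 in each labelled library, with the unsplit total of the unlabelled libraries hatched. Library A is the left and library B the right bar of a pair. The split uses the posterior mode. New Nr4a1 and Egr3 RNA alone exceeds the unlabelled totals of the same procedure. New Egr1 and Ier5 RNA stays below them, as their labelled totals already do.

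The relatives of these genes gave mixed values. Nr4a2, another member of the orphan receptor family, had log2 differences of 0.26 (SE 0.17), 0.04 (SE 0.17), 0.16 (SE 0.18) and −0.30 (SE 0.19) for 200 µM and 800 µM in tubes and then in fixed cells, none called. Nr4a3, also of that family, had 1.73 (SE 0.70), 1.44 (SE 0.69), 0.62 (SE 0.69) and 1.19 (SE 0.67), also not called, at a mean of 14 counts per library. Ier5l, which encodes a protein like that of Ier5, fell at 800 µM, by 0.73 on the log2 scale (SE 0.18) in tubes and by 0.72 (SE 0.18) in fixed cells, with edgeR BH-adjusted p = 0.0453 and 0.0406. At 200 µM its values were −0.36 and −0.56 (SE 0.18 each) and did not pass. The Ier5l call at 800 µM in tubes was lost whichever library was left out (−0.90 to −0.58). In fixed cells it was lost without unlabelled library A (−0.76) or B (−0.64) or labelled library A (−0.42, SE 0.18). Without that library A, Nr4a2 and Nr4a3 had −0.21 (SE 0.23) and 1.29 (SE 0.80). Between the unlabelled libraries Nr4a2 was lower in fixed cells, with −1.16 (SE 0.18), where Nr4a1 was higher. Nab1 and Nab2, corepressors that bind the Egr proteins, were not called in any of the 4 comparisons with 4sU, with values between −0.29 and 0.25, and 0.18 (SE 0.18) and −0.13 (SE 0.16) at 800 µM in fixed cells without library A.

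Among 17 tested genes of the signalling upstream, 0 rose and 1 fell at 200 µM in tubes, beside 2.36% and 1.39% of all genes. None was called at 800 µM in tubes (0.912% and 0.957% of all genes) or at 200 µM in fixed cells (0.244% and 0.569%). At 800 µM in fixed cells 0 rose and 1 fell, beside 0.776% and 1.89% of all genes. Both times the gene was Creb1, which encodes the factor that binds the CRE, with −0.57 (SE 0.14, edgeR BH-adjusted p = 0.0343) and −0.58 (SE 0.14, edgeR BH-adjusted p = 0.0314). Both Creb1 calls were lost whichever library was left out, with −0.59 to −0.55 at 200 µM in tubes and −0.59 to −0.51 at 800 µM in fixed cells, where it was −0.59 (SE 0.17) without labelled library A. Srf, for serum response factor, had 0.22, 0.09, −0.28 and 0.18 (SE 0.19 each) and was not called, and the last was −0.07 (SE 0.19) without that library.

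Of 57 other immediate early genes tested, 8 rose and 1 fell at 200 µM in tubes, 9 rose and 1 fell at 800 µM in tubes, 3 rose and 2 fell at 200 µM in fixed cells, and 8 rose and 4 fell at 800 µM in fixed cells. In this order 2.36% of all genes were called higher and 1.39% lower, then 0.912% and 0.957%, 0.244% and 0.569%, and 0.776% and 1.89%. The medians of the list were 0.17, 0.25, 0.16 and 0.09, against medians of all genes near 0. With scaling on low-ratio genes, which put the median gene at −0.16, −0.14, −0.11 and −0.18, the list's medians were −0.03, 0.08, 0.05 and −0.09 and the counts became 4 and 3, 8 and 4, 2 and 3, and 4 and 6. That scaling called 0.704% of all genes higher and 5% lower, then 0.433% and 2.98%, 0.162% and 1.67%, and 0.361% and 6.45%. The list was chosen with earlier results of these data known, so nothing about it is read from its counts. With 1 library left out most of the list's counts were lower, and the counts over all genes moved as well, as given at the end. At 200 µM in tubes 0 to 5 rose and 0 to 1 fell, with 0 rising without library B of either group. At 800 µM in tubes 2 to 7 rose and 0 fell, with 2 rising without unlabelled library B and 3 without labelled library B. At 200 µM in fixed cells 0 to 2 rose and 0 fell, with 0 rising without labelled library A or unlabelled library B. At 800 µM in fixed cells 1 rose and 0 fell without either unlabelled library, 7 rose and 4 fell without labelled library A, and 11 rose and 3 fell without labelled library B.

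Hbegf, a ligand of the EGF receptor, rose in all 4 comparisons, by log2 differences of 0.89, 1.46, 1.10 and 1.31 (SE 0.15 each), going from a mean of 64.0 to 176 CPM at 800 µM in tubes (edgeR BH-adjusted p = 6.02e-05). Errfi1, a feedback inhibitor of that receptor, rose in tubes by 0.90 and 1.14 and in fixed cells at 800 µM by 0.65 (SE 0.16 each). Plaur, the urokinase receptor, rose in fixed cells by 1.21 and 1.16 and in tubes at 800 µM by 1.12 (SE 0.19 each). Among genes that fell was Irf1, an interferon-induced transcription factor, with −1.26 (SE 0.24) and −1.25 (SE 0.25) in fixed cells. Socs3, an inhibitor of cytokine signalling, fell in fixed cells with −0.74 at 200 µM and −0.68 at 800 µM (SE 0.17 each). Dusp1, a MAP kinase phosphatase, fell at 800 µM with −0.61 (SE 0.15) in tubes and −0.74 (SE 0.15) in fixed cells, and Jun, a subunit of AP-1, fell at 200 µM in tubes with −0.57 (SE 0.14). The mean new-to-total ratio was 98.7% for Hbegf, 98.4% for Errfi1 and 91.2% for Plaur, which rose. It was 98.5% for Socs3, 98.2% for Dusp1, 93.05% for Jun and 88.2% for Irf1, which fell.

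Leaving out 1 library kept the direction of each of these genes and ended many of the calls. Without labelled library A at 800 µM in fixed cells, Hbegf was at 1.52 (SE 0.16), Plaur at 1.18 (SE 0.21), Irf1 at −1.72 (SE 0.26) and Dusp1 at −0.93 (SE 0.16), all still called, whereas Errfi1 at 0.64 (SE 0.18) and Socs3 at −0.69 (SE 0.21) were not. Hbegf at 800 µM in both procedures and Errfi1 at 800 µM in tubes were called whichever library was left out. At 200 µM Hbegf was lost in tubes without unlabelled library B (0.79) or labelled library B (0.95), and in fixed cells without unlabelled library B (1.06) or labelled library A (0.97). Errfi1 at 200 µM in tubes was lost without unlabelled library A (0.93) or B (0.88) or labelled library B (0.91), and at 800 µM in fixed cells also without unlabelled library A (0.46) or B (0.91).

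Plaur was lost at 800 µM in tubes without unlabelled library B (0.87) or labelled library B (1.07), and at 200 µM in fixed cells without unlabelled library A (1.18) or B (1.29) or labelled library A (0.97). At 800 µM in fixed cells Plaur, Irf1 and Dusp1 were lost without either unlabelled library, with 1.12 and 1.23, −1.39 and −1.06, and −0.69 and −0.75 (without A and without B). Irf1 at 200 µM in fixed cells (−1.54 to −1.02), Socs3 in fixed cells at 200 µM (−0.80 to −0.65) and 800 µM (−0.73 to −0.59), Dusp1 at 800 µM in tubes (−0.69 to −0.51) and Jun at 200 µM in tubes (−0.62 to −0.52) were lost whichever library was left out.

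**Figure D5:**
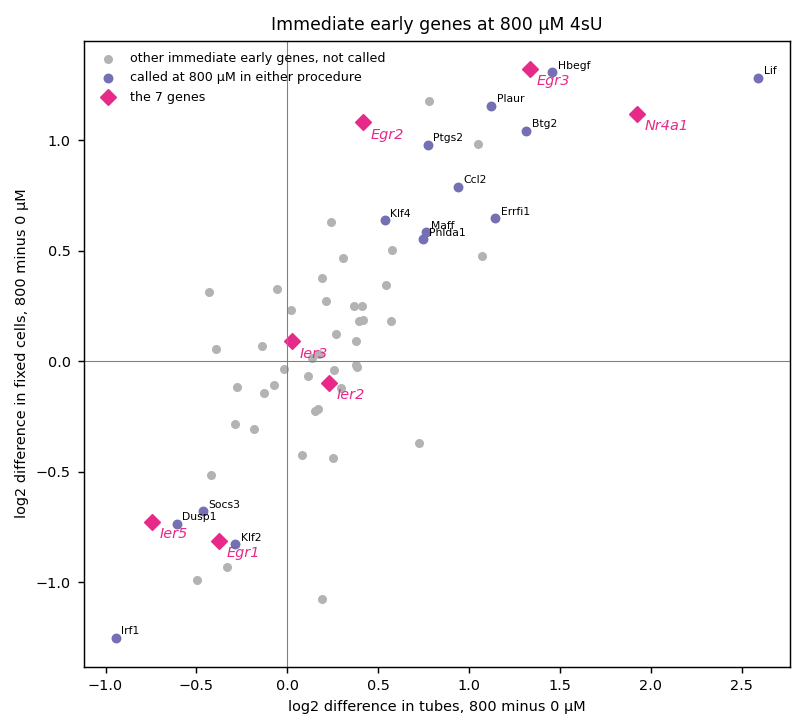
Log2 difference between 800 µM and no 4sU in tubes (horizontal) and in fixed cells (vertical) for the 7 genes (diamonds) and 57 other immediate early genes (dots, purple where called in either procedure). The procedures share no libraries. Nr4a1, Egr3 and Hbegf lie to the upper right, and Ier5, Egr1, Dusp1 and Irf1 to the lower left.

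Among 8246 other genes that averaged at least 50 counts, the genes most like Nr4a1 over the 12 libraries, by Pearson's r of log2 CPM, were Cdkn1a (0.97), Dab2 (0.94), Btg2 (0.93), Angptl4 (0.93) and Errfi1 (0.92). The genes most like Ier5 were Nfatc4 (0.98), Ninl (0.97) and Ttll4 (0.97). Within the 7 genes, Egr1 and Ier5 had an r of 0.91 and Nr4a1 and Ier5 one of −0.66. These values describe 12 libraries in 6 groups of 2, which share their depth, scaling and treatment, and carry no test.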

How the data were processed

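One deposited table was used. Its read counts were deposited by the authors as estimated counts per gene and library, since 16.2% to 22.0% of a library's values are not whole numbers, and they were rounded before testing. The rule that divided reads between genes was not stated in the labels or headers. Per the file headers, the authors also deposited the new-to-total ratio, a fraction, as posterior mode, mean and 0.05 and 0.95 quantiles for the 8 labelled libraries, and alpha and beta, scores for the beta distribution behind it. Tools listed in the submitters' processing notes, with no roles, are Bowtie2 2.3.0, STAR 2.7.10b and cutadapt. Neither the genome build nor the annotation is given in the sources used here, and 15185 of 15217 gene IDs were found in GENCODE M21.

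Genes kept by filterByExpr (minimum count 10, minimum total 15) were fitted with edgeR 4.0.16 in R 4.3.3: TMM scaling, quasi-likelihood F test, 12 libraries in 6 groups, no replicate block, BH adjustment over all genes tested. The common biological coefficient of variation was 12.3%. CPM is on the effective (TMM-scaled) library size. Ratios were compared with limma 3.58.1 (trend) on the logit, kept between 0.01 and 0.99, for genes with at least 100 counts in each labelled library. The p-values measure the spread between these libraries, which may be technical. DESeq2 1.42.0, other scalings and filters, the replicate block and leaving out each library were tried, and the code was tested on simulated data.

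The members and gene lists were chosen with earlier results of these data known. The genes named beside the members were, from each list, up to 2 with the smallest p past the threshold in each direction in each comparison with 4sU, the family relatives, Nab1, Nab2 and Srf always, and by likeness the 5 genes closest to Nr4a1 and the 3 closest to Ier5, passing over models without a common symbol. Promoter sequences are RefSeq's on GRCm38.p6, and 4 of the 7 members were matched there.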

Additional observations from a re-analysis of the deposited data

How the results depend on the processing

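No direction of a called member difference with 4sU reversed: all 15 kept their sign in 10 of 10 alternatives, but only 2, Nr4a1 in tubes at both doses, passed the threshold in all 10. Counts of genes past the threshold moved more. Without the filter on low counts they were 854 (200 µM) and 482 (800 µM) in tubes and 252 and 816 in fixed cells, against 416, 207, 90 and 295, with 76 and 24 for the difference between procedures and 92 and 127 for the dose step in tubes and in fixed cells, against 0. Scaling on low-ratio genes gave 632, 378, 203 and 755. Fitting only the groups compared gave 400 at 800 µM in tubes, 652 and 40 in fixed cells, 11 for the difference between procedures at 200 µM and 16 for the tube dose step. DESeq2 gave 557 at 800 µM in fixed cells, 9 for the difference at 200 µM and 12 for the tube dose step. For the ratio between procedures at 800 µM, posterior means gave 8 genes and a minimum count of 10 gave 1. With 1 library left out, where the lone library is assumed to vary like the other groups, the counts ranged from 18 to 210 and 22 to 88 in tubes, 2 to 9 and 24 to 1199 in fixed cells, 0 to 3 and 0 to 123 for the difference at 200 µM and 800 µM, 2151 to 2649 between unlabelled libraries, and 0 to 2 and 0 to 484 for the dose steps. For the ratio they ranged from 0 to 1 and 0 to 969 between procedures at 200 µM and 800 µM, and 0 to 635 between doses in fixed cells. The highest counts at 800 µM in fixed cells, and those over 100 in the differences, dose step and ratios, came without library B, which leaves library A alone. The causes were not tested. Replicate letters showed no steady pairing of the libraries, but these correlations cannot exclude one. Differences between A and B correlated at −0.21 to 0.26 across groups, over 0.1 in 2 of 15 pairs. The highest was between tubes at 0 and at 800 µM. With the letter as a replicate block the counts were 320, 177, 68 and 238. Egr1 at 200 µM in tubes was then lost (−0.62, edgeR BH-adjusted p = 0.0501). Ier5l and Dusp1 at 800 µM in tubes and Socs3 at both doses in fixed cells were lost too. With only the groups compared at 800 µM in fixed cells, Irf1, Dusp1, Socs3, Errfi1, Creb1 and Ier5l were lost, while Hbegf and Plaur were kept. Scaling on low-ratio genes ended the call of Errfi1 there (0.46). DESeq2 size factors and the DESeq2 test each ended that of Socs3 at 200 µM in fixed cells (−0.70 each). The Nr4a1 difference between procedures at 200 µM passed only without the filter (edgeR BH-adjusted p = 0.0455). Depth limits Egr2 most, at 5 to 32 counts.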
